A study of Mus musculus with 4 samples.

Results

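The genes described here encode coagulation factors, fibrinogen, plasma protease inhibitors, complement proteins and acute phase proteins. They were taken by gene name as a set of 52 genes, of 55397 genes listed for this RNA-seq experiment, and all 52 were found. The set was chosen with earlier results of these data known. The mean over the 4 libraries reached 10 normalized counts for 30 of the 52, which were tested, and stayed under 10 for 22, of which 4 (C8a, Saa1, Serpina6 and F9) had no read in any library. All 30 also had a mean of at least 10 in each group taken alone. In limma, with an adjusted p-value under 0.05 over all genes tested, 17 members were lower and 0 higher in reprogrammed fibroblasts given Cre against floxed Prox1 than in controls, where 6.29% of all 15809 genes tested were lower and 5.09% higher. DESeq2 called 8 of the 17, and limma without pairing the replicates called 0. The 17 included 6 of 8 complement components, of which DESeq2 called only Cfb. The fibrinogen chain Fgb, the antitrypsin Serpina1b, the acute phase protein Saa3, Serpinf1, Cd55, C1qtnf6 and Itih2 were called by both tests. The antitrypsin Serpina1a and the C1 inhibitor Serping1 were among those that limma called and DESeq2 did not. The tissue factor gene F3, Pros1, Masp1, Serpina3n, Lcn2 and Hp were among the 13 that did not pass.

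Primary mouse embryonic fibroblasts (MEFs) from E13.5 Prox1 fl/fl embryos on a C57BL/6J background were reprogrammed toward hepatocytes. All 4 cultures received the 4in1 lentivirus (LV.4TF), a vector for hepatocyte-inducing transcription factors, and were harvested at day 14. The libraries labelled Prox1 KO, called KO-labelled below, came from 2 cultures given Cre fused to GFP (Cre-GFP), and the 2 controls, labelled WT Prox1, from cultures given a non-functional form of the recombinase (dCre-GFP). Within each group the libraries are numbered replicate 1 and replicate 2, and same-numbered libraries form pair 1 and pair 2. The floxed alleles and the 4in1 factors were thus shared by both groups. According to the study's methods, a MEF line was made from the limbs of several embryos together. Whether a replicate number stands for a MEF line is not stated in the sources used here. The p-values then measure only the spread between these libraries. In limma the spread used for a gene's standard error, interval and p-value was moderated toward that of genes of similar level. With 2 pairs, a limma interval can thus be narrower than the gap between the pairs of that gene. No library of unreprogrammed MEFs is part of this comparison, so whether a gene was induced by reprogramming cannot be read from it.

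The liver secretes most plasma proteins of the clotting and complement cascades. In coagulation, tissue factor starts a chain of serine proteases that ends with thrombin cutting fibrinogen into fibrin, and serpins such as antithrombin stop the proteases. In complement, the C1, lectin and alternative routes converge on C3, and regulators on the cell surface and in plasma limit its cleavage. Acute phase proteins are released in larger amounts during inflammation, under the control of interleukin-6 through STAT3, of interleukin-1 through NF-κB, and of C/EBP factors. Fibroblasts also make several complement proteins and serpins.

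Depth ranged from 42469031 to 48524008 reads on genes per library. Prox1 itself had 72.7 and 61.6 normalized counts in the KO-labelled libraries and 60.6 and 25.5 in the controls, a log2 fold change of 0.75 ± 0.27 (SE; adjusted p = 0.0936 from limma). The targeted gene was not lower where Cre was given. These counts cover all exons, so loss of the floxed part alone cannot be read from them, and every direction below rests on the labels. Of 12 hepatocyte markers, 8 reached a mean of 10, and Alb had 3838 and 4766 against 4197 and 5021 normalized counts (KO-labelled against control, replicate 1 first), while Tat, G6pc, Pck1 and Cyp3a11 stayed under 10. All 9 fibroblast markers were tested, with Col1a1 at 264118 and 300038 against 251990 and 293721. Of 9 macrophage markers, 5 stayed under 10, and Adgre1 and Tyrobp were at 0 in every library. The RNA therefore held hepatocyte and fibroblast transcripts together. In bulk RNA, fewer cells of a type and less RNA per cell cannot be told apart.

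The plot of normalized counts by library shows the spread of levels over the tested members and the position of each library. Levels of different genes are compared here as normalized counts per kilobase of exon, averaged over the controls. On this scale Serpina3n stood highest at 22528, followed by Serping1 at 6127, C3 at 5954, Serpinf1 at 5524 and Pros1 at 3012. The lowest were C7 at 10.2, F8 at 12.9, Serpinf2 at 18.0 and Fga at 21.98. The abundant members were thus serpins, complement genes and protein S, and the fibrinogen chains lay near the bottom of the tested members. The members together took 0.276% and 0.411% of all normalized counts in the KO-labelled libraries, and 0.351% and 0.455% in the controls.

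**Figure D1:**
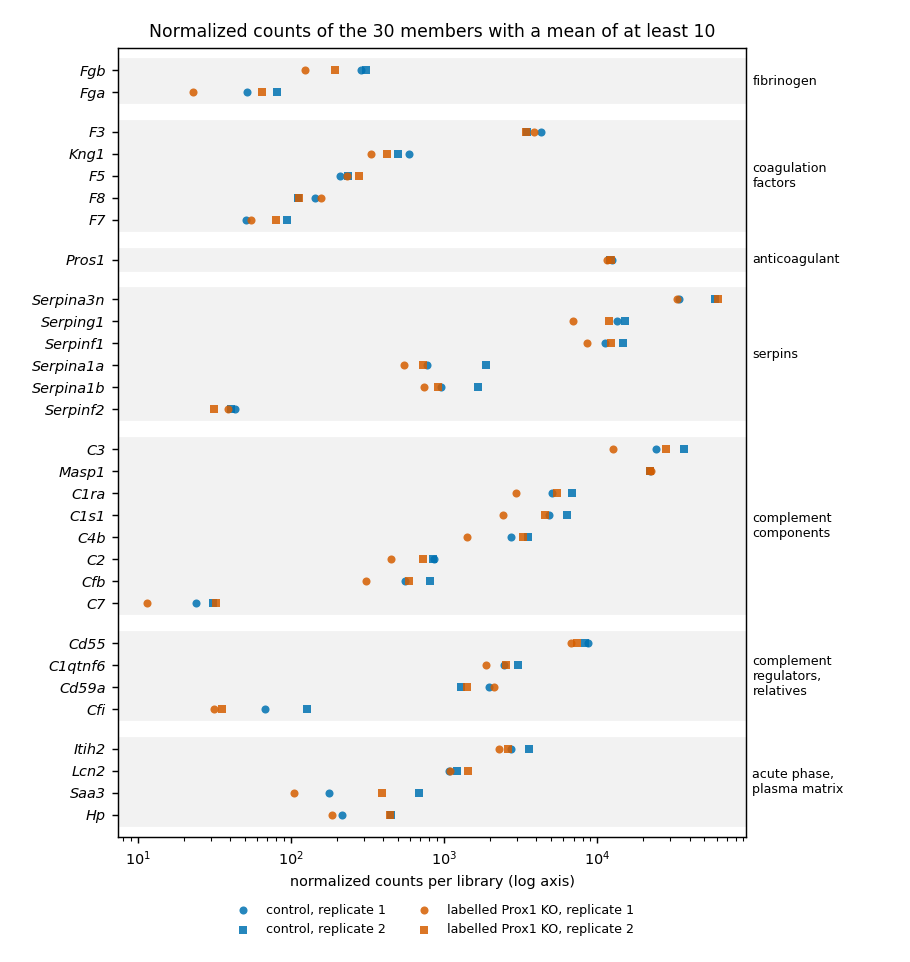
Normalized counts of the 30 tested members in each library, on a log axis, grouped by role; orange is KO-labelled, blue is control, circles are replicate 1 and squares replicate 2. C3 ran from 12643 to 36972 and Cfi from 31.2 to 128, while the 4 points of Masp1 lie on each other near 22218.

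The comparison of the groups asked how the reprogrammed cells given Cre differ from those given dCre. Each value was taken as log2(normalized counts + 1), a scale on which changes of low genes come out too small, and a log2 fold change is the mean of the within-pair differences, KO-labelled minus control. The 17 members lower at the threshold are 56.7% of the 30 tested. Over all genes tested, 6.29% were lower and 11.4% passed in either direction. The members were chosen with earlier results of these data known, so these shares are a description and not a test of the set. The median log2 fold change of the 30 members was -0.41, against -0.002 over all genes tested. All 17 had a lower value in the KO-labelled library in pair 1 and again in pair 2. Of all 30, 21 were lower in both pairs (33.3% of all genes tested) and 11 had both KO-labelled libraries below both controls (22.6%). No member had both above. These counts depended on the test. edgeR's quasi-likelihood test on the recovered reads, also with the replicate block, called all 17. DESeq2 with the block called 8 of them, namely Fgb, Serpina1b, Serpinf1, Cfb, Cd55, C1qtnf6, Saa3 and Itih2. DESeq2 was run on all 28108 genes above 0 in at least 1 library, so the gene set differed as well as the test. limma without the block called 0, with 8 members at an unadjusted p under 0.05.

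**Figure D2:**
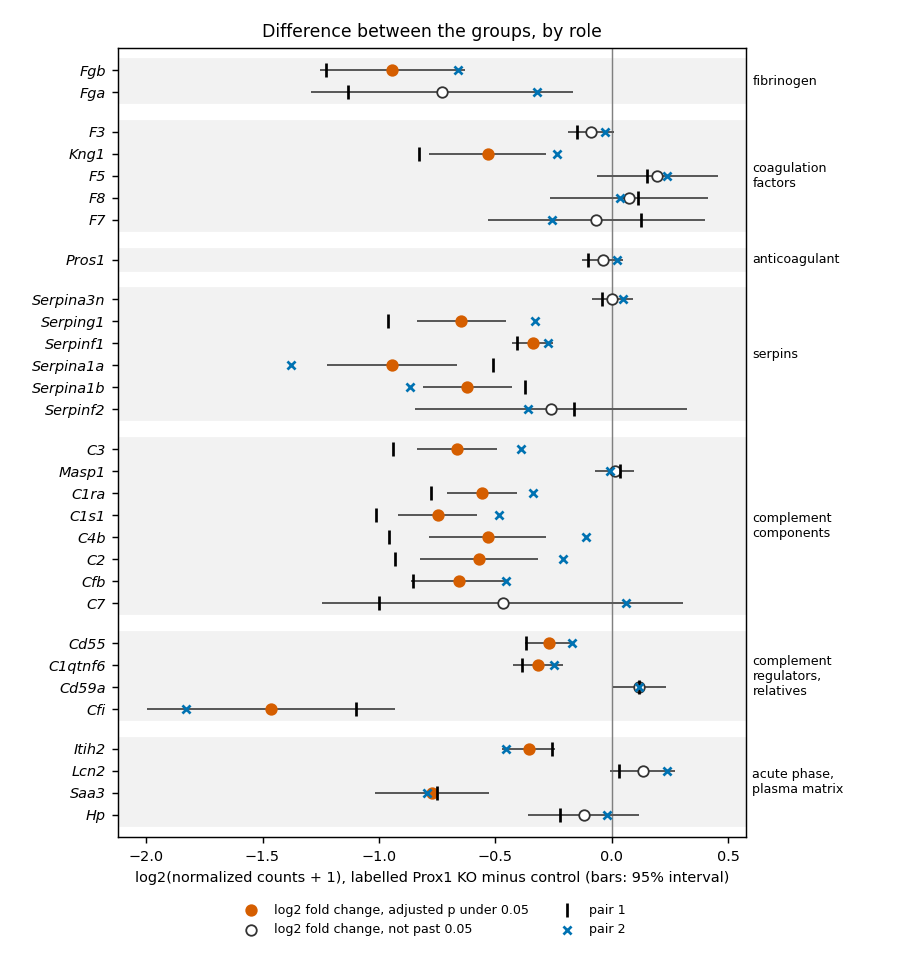
Difference between the groups for each tested member on the log2(normalized counts + 1) scale, with limma's 95% interval as a bar, filled circles for an adjusted p under 0.05, a tick for pair 1 and a cross for pair 2. Filled circles all lie left of 0, from -1.47 (Cfi) to -0.27 (Cd55), and the ticks of most complement components lie left of their crosses.

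Before the values, the upstream sequences of 5 of the lower members are given. They were chosen as lower in limma and as holding a match to the recognition motif of C/EBP factors. Lower members without a match, and members that did not pass, could thus not appear among them. Promoter sequences of 300 bases (250 before the start of transcription and 50 after it, RefSeq, GRCm38.p6) were at hand for 41 of the 52 members. Exact matches were sought on both strands. The C/EBP motif TTGCNNAA was found for 15 of the 41 members (36.6%), against 10.8% of all 32851 promoters. It occurred in 8 of the 11 members with a sequence that limma called lower. These were C1ra, C1s1, C3, Fgb, Itih2, Saa3, Serpina1a and Serpina1b. DESeq2 called Fgb, Itih2, Saa3 and Serpina1b of these, and not C1ra, C1s1, C3 and Serpina1a. C1qtnf6, Cd55 and Serpinf1, which both tests called, held no match. Serpina1a and Serpina1b are near-identical copies, so their matches may not be independent. In C1ra and Serpina1a the match lay after the start of transcription, at 16 to 23 and 24 to 31. For C1s1 it lay at -242 to -235 from a single start, and another start held none. Of the 11 members with a sequence that were tested and did not pass in limma, 2 held the motif (Fga and Lcn2). The other motifs were not more frequent in the lower members than in those that did not pass, with STAT in 2 of 11 against 3 of 11, HNF1 in 0 against 1 and the interferon response motif in 1 against 1. Over all members with a sequence, the STAT motif TTCNNNGAA was found for 8 members (19.5%, against 8.30% of all promoters), the HNF1 motif GTTAATNAT for 2 (4.88%, against 0.801%) and an interferon response motif for 3 (7.32%, against 3.44%). A match is a string of letters and not a bound site, and no test was made of these shares.

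The stretches below are written 5′ to 3′ on the strand of the gene in GRCm38.p6, in lower case, from position -200 toward the start of transcription, with matches of the C/EBP and STAT motifs in capitals. Those of Fgb, C3, Serpina1b and Itih2 end at position -1, and that of Saa3 ends at position -25, where an annotated exon starts. All 5 genes lie on the minus strand. For Serpina1b and Itih2 the RefSeq start used here lies inside the gene as GENCODE vM21 draws it.
Fgb, chr3:83049864-83050063: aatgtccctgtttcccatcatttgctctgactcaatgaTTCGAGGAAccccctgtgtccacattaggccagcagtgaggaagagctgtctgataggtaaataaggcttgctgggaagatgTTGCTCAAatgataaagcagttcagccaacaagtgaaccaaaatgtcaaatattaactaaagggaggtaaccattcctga
C3, chr17:57228137-57228336: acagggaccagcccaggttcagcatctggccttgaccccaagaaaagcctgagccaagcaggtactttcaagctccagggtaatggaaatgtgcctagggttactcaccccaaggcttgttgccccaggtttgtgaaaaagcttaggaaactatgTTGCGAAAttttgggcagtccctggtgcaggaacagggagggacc
Saa3, chr7:46715701-46715876: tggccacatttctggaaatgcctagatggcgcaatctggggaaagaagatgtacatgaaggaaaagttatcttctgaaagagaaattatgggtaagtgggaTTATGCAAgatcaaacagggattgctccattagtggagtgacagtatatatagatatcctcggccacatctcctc
Serpina1b, chr12:103738190-103738389: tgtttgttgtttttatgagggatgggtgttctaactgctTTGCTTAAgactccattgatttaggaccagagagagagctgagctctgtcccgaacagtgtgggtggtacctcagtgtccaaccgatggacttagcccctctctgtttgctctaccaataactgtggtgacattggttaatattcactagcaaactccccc
Itih2, chr2:10130684-10130883: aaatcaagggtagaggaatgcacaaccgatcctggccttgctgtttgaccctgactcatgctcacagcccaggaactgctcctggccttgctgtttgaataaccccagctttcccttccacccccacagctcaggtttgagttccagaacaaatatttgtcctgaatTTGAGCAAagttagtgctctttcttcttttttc
Fgb held both motifs, STAT at -162 to -154 and C/EBP at -80 to -73. The C/EBP match lay at -45 to -38 in C3, at -99 to -92 in Saa3, at -161 to -154 in Serpina1b and at -33 to -26 in Itih2.

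The fibrinogen chains Fga, Fgb and Fgg, which assemble into the clotting substrate, lie next to each other on chromosome 3 between 83007724 and 83049863 (GRCm38). Fgb (ENSMUSG00000033831; chromosome 3, 83040141 to 83049863, minus strand) had 123 and 195 normalized counts in the KO-labelled libraries and 288 and 308 in the controls. The groups did not overlap. The log2 fold change was -0.94 ± 0.15 (SE), or 0.52 times the control level, with an adjusted p = 0.000609 from limma, and the difference was -1.23 (pair 1) and -0.66 (pair 2). Fga had 22.9 and 64.5 normalized counts in the KO-labelled libraries and 51.4 and 80.9 in the controls. Its groups overlapped, although each pair went down, and its log2 fold change of -0.73 ± 0.26 (SE) did not pass (adjusted p = 0.0947 from limma). Fgg was close to absent, with 0 reads in both KO-labelled libraries and 1 and 5 in the controls, a count too small to compare. The C/EBP motif printed for Fgb was also found upstream of Fga.

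Of the coagulation factors, F3, F5, F7, F8 and Kng1 were tested and 1 of these 5 passed. Kng1 (ENSMUSG00000022875; chromosome 16, 23057865 to 23082078, plus strand), which encodes the kininogen that carries bradykinin, had 333 and 424 normalized counts in the KO-labelled libraries and 591 and 500.3 in the controls. The groups did not overlap, and the log2 fold change was -0.53 ± 0.12 (SE; adjusted p = 0.00779 from limma), with -0.83 (pair 1) and -0.24 (pair 2). Of its 100-base windows, 5.80% also occur in Kng2, a neighboring copy that had 170.4 and 309 against 304 and 348 normalized counts and was also lower (log2 fold change -0.50 ± 0.14, SE; adjusted p = 0.0324 from limma). F3, the tissue factor that starts clotting on cell surfaces, was the most abundant of the factors per kilobase (1537 in the controls), with 3855 and 3419 normalized counts in the KO-labelled libraries and 4278 and 3489 in the controls. Its groups overlapped and its log2 fold change was -0.09 ± 0.05 (SE), with a 95% interval of -0.19 to 0.01. F5, the cofactor of the prothrombin-cutting enzyme, had 233 and 278 against 209 and 235 normalized counts. The interval of its log2 fold change ran from -0.06 to 0.45. F7, the protease partner of tissue factor, had 55.1 and 79.2 against 50.5 and 94.7, and its pairs went in opposite directions. F8, the cofactor missing in hemophilia A and X-linked, had 156 and 113 against 144 and 111, with an interval of -0.27 to 0.41. The interval of F7, -0.53 to 0.40, was wide on either side of 0, as was that of F8.

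The remaining 6 coagulation factors stayed under a mean of 10. F2, prothrombin, had 0 and 7 against 1 and 6 reads (KO-labelled against control, replicate 1 first). F10 had 4 and 3 against 3 and 2 reads, F11 had 1 and 4 against 1 and 1, F13b had 1 and 1 against 1 and 0 and F12 had 1 and 0 against 1 and 0, and F9 had none. Of the anticoagulant and fibrinolytic genes, Pros1 (ENSMUSG00000022912; chromosome 16, 62854307 to 62929346, plus strand), encoding protein S, the cofactor of activated protein C, was abundant and steady, with 11642 and 12320 normalized counts in the KO-labelled libraries and 12487 and 12142 in the controls. The log2 fold change of -0.04 ± 0.04 (SE) had an interval of -0.13 to 0.05 that holds 0. Proc, protein C, had 4 and 3 against 8 and 7 reads. Plg, plasminogen, had 3 and 0 against 15 and 4 reads. Both had more reads in each control than in its pair, at counts under the limit for the test. With all genes above 0 in at least 1 library tested together, 0 of the members under 10 passed in limma and 2, Plg and Fgg, had an unadjusted p under 0.05.

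Among the serpins, suicide inhibitors of proteases, 4 of 6 tested members were lower. Serpina1a (ENSMUSG00000066366; chromosome 12, 103853589 to 103863562, minus strand), an alpha-1 antitrypsin that inhibits neutrophil elastase, had 545 and 724 normalized counts in the KO-labelled libraries and 776 and 1886 in the controls. The control of replicate 2 stood far above the other 3 libraries. The log2 fold change was -0.94 ± 0.13 (SE; adjusted p = 0.00024 from limma, 0.314 from DESeq2), with -0.51 (pair 1) and -1.38 (pair 2). Its neighbor Serpina1b (ENSMUSG00000071178; chromosome 12, 103728156 to 103830373, minus strand) had 737 and 905 normalized counts in the KO-labelled libraries and 956 and 1650.0 in the controls. The groups did not overlap, and the log2 fold change was -0.62 ± 0.09 (SE; adjusted p = 0.000345 from limma, 0.00104 from DESeq2), with -0.37 (pair 1) and -0.87 (pair 2). These antitrypsins are near-identical copies. Cut into 100-base windows, 49.9% of the longest Serpina1a transcript and 20.6% of that of Serpina1b also occur in other genes of the family, so the division of reads between them is uncertain. A further copy, Serpina1c, had 80.02 and 145.6 against 143 and 341 normalized counts and was also lower (log2 fold change -1.03 ± 0.16, SE; adjusted p = 0.000503 from limma).

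Serping1 (ENSMUSG00000023224; chromosome 2, 84765387 to 84775444, minus strand), the C1 inhibitor that blocks C1r, C1s and the contact proteases, had 6889 and 11995 normalized counts in the KO-labelled libraries and 13426 and 15065 in the controls. The KO-labelled library of replicate 1 was lowest and the groups did not overlap. Its log2 fold change was -0.65 ± 0.09 (SE; adjusted p = 0.000256 from limma, 0.395 from DESeq2), with -0.96 (pair 1) and -0.33 (pair 2). Serpinf1 (ENSMUSG00000000753; chromosome 11, 75409769 to 75422701, minus strand), a non-inhibitory serpin known as pigment epithelium-derived factor, had 8512 and 12214 normalized counts in the KO-labelled libraries and 11276 and 14786 in the controls. The groups overlapped because both replicate 2 libraries were higher, and within pairs the difference was -0.41 (pair 1) and -0.28 (pair 2). The log2 fold change of -0.34 ± 0.04 (SE) passed in limma (adjusted p = 8.51e-05) and in DESeq2 (2.83e-06). Serpina3n (ENSMUSG00000021091; chromosome 12, 104406729 to 104414329, plus strand), a mouse antichymotrypsin and an acute phase gene, had 32943 and 61048 normalized counts in the KO-labelled libraries and 33928 and 59068 in the controls. Replicate 2 was 1.85 times replicate 1 in the KO-labelled libraries and 1.74 times in the controls, while the groups differed by 0.00 ± 0.04 (SE) on the log2 scale, with an interval of -0.09 to 0.09. Serpinf2, the plasmin inhibitor, had 38.5 and 31.3 against 43.1 and 40.5 and did not pass (adjusted p = 0.62 from limma). Serpind1, the heparin cofactor, had 8 and 6 against 9 and 6 reads and Serpinc1, antithrombin, 5 and 7 against 2 and 5.

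The complement components formed the group with the most members lower, 6 of 8 tested. Of these 8, 2 had both KO-labelled libraries below both controls (25.0%), where 22.6% of all genes tested did. C1ra and C1s1, the proteases of the C1 complex, lie side by side on chromosome 6. C1ra (ENSMUSG00000055172; chromosome 6, 124512405 to 124523443, plus strand) had 2958 and 5429.9 normalized counts in the KO-labelled libraries and 5066 and 6867 in the controls. C1s1 (ENSMUSG00000038521; chromosome 6, 124530345 to 124542359, minus strand) had 2413 and 4524 normalized counts in the KO-labelled libraries and 4868 and 6331 in the controls. The KO-labelled library of replicate 1 was lowest for each, and the groups overlapped for C1ra and not for C1s1. The log2 fold change was -0.56 ± 0.07 for C1ra (SE; adjusted p = 9.51e-05 from limma) and -0.75 ± 0.08 for C1s1 (SE; adjusted p = 2.07e-05 from limma), and neither passed in DESeq2 (0.179 and 0.0933). The difference was -0.78 (pair 1) and -0.34 (pair 2) for C1ra, and -1.01 (pair 1) and -0.48 (pair 2) for C1s1. Of their 100-base windows, 35.9% for C1ra and 20.0% for C1s1 also occur in other genes, among them C1rb and C1s2, which had at most 3 and 11 reads in any library. The antisense gene Gm16567 overlaps 18.4% of the exon bases of C1s1 and had 0 reads.

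C3 (ENSMUSG00000024164; chromosome 17, 57203970 to 57228136, minus strand), on which all complement routes converge, had 12643 and 28237 normalized counts in the KO-labelled libraries and 24270 and 36972 in the controls. The groups overlapped, since the control of replicate 1 was below the KO-labelled library of replicate 2. Within pairs the log2 difference was -0.94 (pair 1) and -0.39 (pair 2). Its log2 fold change was -0.66 ± 0.08 (SE), or 0.631 times the control level, with an adjusted p = 6.78e-05 from limma and 0.226 from DESeq2. C2, Cfb and C4b, which take part in the convertases that cut C3 and C5, lie within one stretch of chromosome 17, C4b from 34728380 to 34743882, Cfb from 34856374 to 34862518 and C2 from 34862604 to 34898265. C4b had 1416 and 3245 normalized counts in the KO-labelled libraries and 2747 and 3508 in the controls. Its difference was -0.95 (pair 1) and -0.11 (pair 2), so most of the log2 fold change of -0.53 ± 0.12 (SE; adjusted p = 0.00787 from limma, 0.866 from DESeq2) came from pair 1. C2 had 447 and 731 normalized counts in the KO-labelled libraries and 853 and 846 in the controls. The controls were nearly equal and above both KO-labelled libraries, with a log2 fold change of -0.57 ± 0.12 (SE; adjusted p = 0.00521 from limma, 0.675 from DESeq2) and pair differences of -0.93 (pair 1) and -0.21 (pair 2). Cfb had 308 and 589 normalized counts in the KO-labelled libraries and 556 and 809 in the controls. It overlapped between groups, and its log2 fold change of -0.65 ± 0.10 (SE) passed in limma (adjusted p = 0.000442) and in DESeq2 (0.0113). An annotated gene that overlaps both on the same strand, Gm20547, shares 81.0% of the 100-base windows of Cfb and 53.2% of those of C2, and 1 read was assigned to it over the 4 libraries. C4a, the copy of C4b, shares 16.5% of the windows of C4b and had 20.8 ± 2.18 normalized counts in the controls (SD, n = 2).

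Masp1 (ENSMUSG00000022887; chromosome 16, 23449417 to 23520815, minus strand), a protease of the lectin route that also acts through C2 and C4, had 22528 and 22064 normalized counts in the KO-labelled libraries and 22016 and 22218 in the controls. The 4 libraries were within a narrow range. They gave a log2 fold change of 0.01 ± 0.04 (SE), with an interval of -0.07 to 0.10 that holds 0. C7, of the membrane attack complex, had 11.4 and 32.3 against 23.9 and 30.9 and did not pass (adjusted p = 0.48 from limma), its pairs differing in sign. The other members of the attack complex and of the lectin and alternative routes were under 10. C6 had 0 and 8 against 1 and 4 reads, C9 had 5 and 1 against 1 and 3, Cfd, which activates Cfb, had 3 and 2 against 1 and 0, and Mbl2, the mannose-binding lectin, 0 and 0 against 0 and 2. C8a had none. The early components that were lower were therefore among the well-counted members, while those of the attack complex and of lectin recognition had few reads or none.

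Of the complement receptors, regulators and relatives, 3 of 4 tested were lower. Cfi (ENSMUSG00000058952; chromosome 3, 129835884 to 129875332, plus strand), the plasma protease that inactivates C3b and C4b, had 31.2 and 35.2 normalized counts in the KO-labelled libraries and 67.9 and 128 in the controls. The KO-labelled libraries were close to each other and below both controls. Its log2 fold change of -1.47 ± 0.25 (SE), or 0.362 times the control level, was the largest among the tested members (adjusted p = 0.00123 from limma, 0.0602 from DESeq2). Cd55 (ENSMUSG00000026399; chromosome 1, 130439027 to 130462744, minus strand), which takes C3 convertases apart at the cell surface, had 6682 and 7393 normalized counts in the KO-labelled libraries and 8640.3 and 8319 in the controls. The change was small and the groups did not overlap, with a log2 fold change of -0.27 ± 0.05 (SE; adjusted p = 0.00151 from limma, 0.00505 from DESeq2) and pair differences of -0.37 (pair 1) and -0.17 (pair 2). C1qtnf6, a secreted protein with a C1q-like domain, had 1888 and 2535 against 2467 and 3013, a log2 fold change of -0.32 ± 0.05 (SE; adjusted p = 0.000811 from limma, 0.0191 from DESeq2). Cd59a, which blocks the attack complex at the membrane, had 2126 and 1399 against 1959 and 1290.2 and was higher by 0.12 in each pair without passing (adjusted p = 0.198 from limma). C5ar1, the receptor of C5a, had 0 and 3 against 1 and 0 reads. All 3 that passed were lower, as were all 6 complement components that passed.

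Of the acute phase and plasma matrix proteins, Saa3 and Itih2 were lower, and Hp and Lcn2 did not pass. Saa3 (ENSMUSG00000040026; chromosome 7, 46711998 to 46715700, minus strand), the serum amyloid A made outside the liver as well as in it, had 105 and 392 normalized counts in the KO-labelled libraries and 177 and 680.2 in the controls. Replicate 2 was above replicate 1 by 3.73 times in the KO-labelled libraries and 3.84 times in the controls, so the groups overlapped, and within pairs the difference was nearly the same, -0.75 (pair 1) and -0.79 (pair 2). Its log2 fold change was -0.77 ± 0.12 (SE; adjusted p = 0.000442 from limma, 0.0156 from DESeq2). Itih2 (ENSMUSG00000037254; chromosome 2, 10094593 to 10131396, minus strand), a heavy chain of the inter-alpha-trypsin inhibitor that is moved onto hyaluronan, had 2274 and 2606 normalized counts in the KO-labelled libraries and 2720.1 and 3574 in the controls. The groups did not overlap, and the log2 fold change was -0.36 ± 0.05 (SE; adjusted p = 0.000434 from limma, 0.00372 from DESeq2). Hp, haptoglobin, which binds free hemoglobin, had 185 and 445 against 216 and 451, higher in replicate 2 in each group, with an interval for the group difference of -0.36 to 0.12. Lcn2, which binds bacterial siderophores, had 1095 and 1428 against 1072 and 1212, with an interval of -0.01 to 0.27. Crp had 0 and 0 against 1 and 2 reads, Vtn 0 and 0 against 0 and 2 and Itih3 3 and 0 against 0 and 0, and Saa1 none. At these counts no difference was detectable.

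The replicates differed for many members, and in the same direction in each group. In 21 of the 30 tested members replicate 2 was above replicate 1 both in the KO-labelled libraries and in the controls (70.0%), where 30.8% of all genes tested were. The median log2 difference of replicate 2 minus replicate 1 was 0.47 in the KO-labelled libraries and 0.36 in the controls, against -0.003 and -0.001 over all genes tested. Cd59a, F3, F8 and Serpinf2 went the other way in each group. Of the fibroblast markers, 8 of 9 were also higher in replicate 2 in each group, and of the interferon response markers 12 of 14, against 3 of 8 hepatocyte markers. Xist, read from the inactive X chromosome, had 14495 and 13944 normalized counts in the replicate 1 libraries and 4.89 and 1.06 in those of replicate 2, so the pairs differed in this as well. The part of these differences in the members' levels was not tested.

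**Figure D3:**
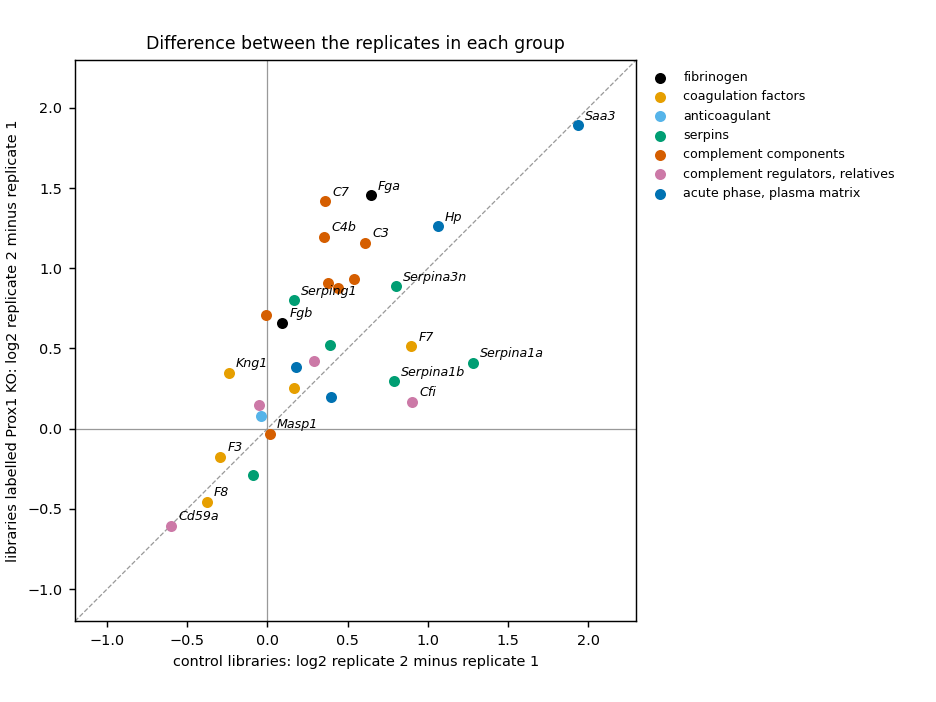
Log2 difference of replicate 2 minus replicate 1 in the controls (horizontal) and in the KO-labelled libraries (vertical) for the 30 tested members, colored by role, with the diagonal dashed. Most points lie above and to the right of 0, Saa3 farthest out at 1.93 and 1.89, with the complement components other than Masp1 above the diagonal and Serpina1a, Serpina1b and Cfi below it.

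The size of the fall also differed between the pairs. Of the 17 members lower at the threshold, 12 fell more in pair 1 and 5 in pair 2, and the pairs were over 0.5 apart on the log2 scale for 9. The 6 complement components, Serping1, Kng1 and Fgb were among those with the larger fall in pair 1, while Serpina1a, Serpina1b, Cfi, Itih2 and Saa3 had it in pair 2. With 2 pairs this difference has no test. The median log2 difference of the 30 members was -0.40 in pair 1 and -0.25 in pair 2. The members called by limma and not by DESeq2 were Kng1, Serpina1a, Serping1, C1ra, C1s1, C2, C3, C4b and Cfi.

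Other genes of the same pathways give the setting. Of 97 such genes, 67 were tested, 12 were lower (17.9%) and 5 higher, and the median log2 fold change was -0.07. Over all genes tested, 6.29% were lower and 5.09% higher. These lists, too, were chosen with earlier results of these data known. Among 16 tested genes of coagulation and fibrinolysis, Plat, the tissue plasminogen activator, was lower, with 3093 and 3953 against 4327 and 5530.1 normalized counts and a log2 fold change of -0.48 ± 0.04 (SE; adjusted p = 3.86e-06 from limma). Procr, the protein C receptor, was higher at 2541 and 2261 against 2178 and 2034 (log2 fold change 0.19 ± 0.05, SE; adjusted p = 0.0239 from limma), as was, at low counts, Vwf at 30.1 and 23.5 against 9.18 and 10.6 (1.34 ± 0.39; adjusted p = 0.0382 from limma). In this list 1 gene was lower (6.25%, where 6.29% of all genes tested were) and 3 were higher.

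Among 15 tested further complement genes, 3 were lower (20.0%) and 0 higher. Clu, a fluid-phase inhibitor of the attack complex, had 9278 and 11393 against 13669 and 20889 and a log2 fold change of -0.72 ± 0.06 (SE; adjusted p = 1.19e-06 from limma). Colec12, a collectin, had 20015 and 24823 against 23710 and 27760 (-0.20 ± 0.04; adjusted p = 0.00386 from limma). Colec12 overlapped between groups and fell in each pair, as C3 did. The median of this list was -0.20.

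Among 17 tested further acute phase genes, 5 were lower (29.4%) and 0 higher, with a median of -0.01. Steap4 had 515 and 1364 against 1075 and 2158 and a log2 fold change of -0.86 ± 0.08 (SE; adjusted p = 4.98e-06 from limma). Cd14, the lipopolysaccharide co-receptor, had 204 and 245 against 348 and 393 (-0.72 ± 0.11; adjusted p = 0.000581 from limma). Itih5 had 800.2 and 914 against 1025 and 1548 (-0.56 ± 0.08; adjusted p = 0.000368 from limma). Ceruloplasmin (Cp), at 3534 and 5450.5 against 4415 and 6917, and Lbp, at 859 and 1667 against 1251 and 1803, were each lower by 0.33 on the log2 scale (adjusted p = 0.000102 and 0.0141 from limma). The pairs were alike for Cp, -0.32 (pair 1) and -0.34 (pair 2), and unlike for Lbp, -0.54 (pair 1) and -0.11 (pair 2), while Itih5 had -0.36 (pair 1) and -0.76 (pair 2). The metallothioneins Mt1 and Mt2 and the pentraxin Ptx3 were abundant and did not pass.

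Of 19 tested genes of acute phase signalling, 3 were lower (15.8%) and 2 higher. Socs3, the feedback inhibitor of interleukin-6 signalling, had 1553 and 1639 against 1976 and 1996 (-0.32 ± 0.05, SE; adjusted p = 0.00112 from limma). Cebpd had 3422 and 3460.3 against 4178 and 3804 (-0.21 ± 0.05; adjusted p = 0.0091 from limma) and Il1r1, the interleukin-1 receptor, 3868 and 4319.5 against 4957 and 4501 (-0.21 ± 0.06; adjusted p = 0.028 from limma). Il6ra at 1461 and 1571 against 1286 and 1361 and Rela at 5429.8 and 5039 against 4515 and 4633 were higher, by 0.20 and 0.19 on the log2 scale (adjusted p = 0.0371 and 0.0121 from limma). Most of the difference of Il1r1 came from pair 1, with -0.36 (pair 1) and -0.06 (pair 2). Pair 1 was also the larger for Cebpd, with -0.29 (pair 1) and -0.14 (pair 2), and for Rela, with 0.27 (pair 1) and 0.12 (pair 2). Stat3, Il6st and Nfkb1 did not pass. Among further C/EBP genes, Cebpb had 1915 and 1851 against 1765 and 1599. It was higher in each pair without passing (log2 fold change 0.16 ± 0.05, SE; adjusted p = 0.0635 from limma). Cebpa had 548 and 464 against 541 and 460 (0.02 ± 0.09, SE) and did not pass.

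**Figure D4:**
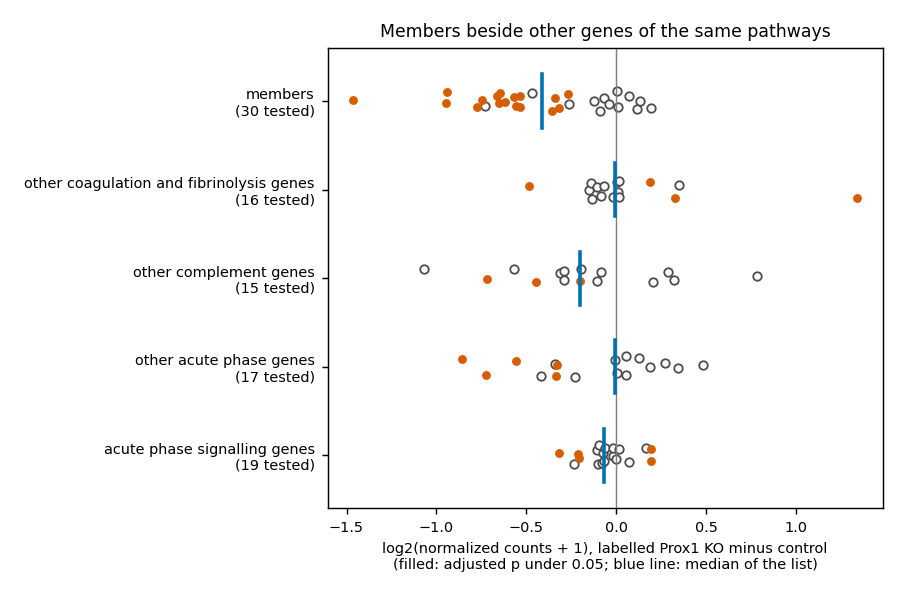
Log2 fold change (KO-labelled minus control, on log2(normalized counts + 1)) of each tested gene, for the 30 members and for 4 lists of other pathway genes, with filled points for an adjusted p under 0.05 and a blue line at each list's median. The medians were -0.41 for the members, -0.01 for other coagulation and fibrinolysis genes, -0.20 for other complement genes, -0.01 for other acute phase genes and -0.07 for the signalling genes; vertical position within a row only separates the points.

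Marker lists of several cell types and responses moved as well, some down with the members and some up. Over all genes tested, 6.29% were lower and 5.09% higher. Of 8 tested hepatocyte markers, 5 were lower (Ttr, Apoa1, Apob, Afp and Rbp4) and 0 higher, and their summed level was 19373 and 20884 normalized counts in the KO-labelled libraries and 25377 and 27052 in the controls. Of 9 fibroblast markers, 5 were lower (Col3a1, Pdgfra, Dcn, Lum and Postn) and 0 higher, while Col1a1, Col1a2, Thy1 and Pdgfrb did not pass, and their sum was 793454 and 1001520 against 921243 and 1099680. Of 14 interferon response markers, 6 were lower and 0 higher. The macrophage markers, with 0 of 4 changed, summed to 325 and 386 against 335 and 311, and the defining Adgre1 was at 0. Of 6 tested cholangiocyte markers, 2 were lower (Krt19 and Epcam) and 0 higher. Their sums, 86600 and 111687 against 89935 and 127958, were mostly Spp1, which did not pass. Other lists went the other way or both ways. Of 4 tested endothelial markers, 0 were lower and 2 higher, Kdr by 0.67 and Flt1 by 0.32 on the log2 scale. Tek and Emcn did not pass, and the other endothelial markers, Pecam1, Cdh5 and Stab2, stayed under 10. The endothelial sums were 9228 and 8397 against 7835 and 6152, most of it Flt1, with 8159 and 7442 against 7073 and 5498. Of 12 genes of the p53 response, 1 was lower (8.33%) and 3 were higher. Of 3 tested mesothelial markers Msln was lower and Upk1b higher. The adipocyte markers, 3 tested, had none past the threshold. The part of any of these lists in the members' differences was not tested.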

How the data were processed

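RNA-seq libraries (dUTP protocol, paired-end reads of 100 bases) were analysed for 2 cultures labelled Prox1 KO and 2 controls. Reads were aligned by the authors to mm10 using STAR, and the deposited normalized counts are a signal per gene, the read count over the size factor of that library from DESeq2. The counting tool, annotation and strand setting are not given in the sources used here. Deposited values were whole multiples of 1 step per library (100% of positive values, within 0.01 of a whole read), so reads were recovered. A second deposited table of the authors' fold changes and p-values was not used. Genes with a mean of at least 10 (15809) entered limma 3.58.1 as log2(normalized counts + 1) (R 4.3.3; intensity trend, Benjamini-Hochberg over all genes tested, threshold 0.05). The replicate number was a block, because the study's methods take the primary MEF line as a covariate, and the deviations of same-numbered libraries correlated at 0.40 across genes. With 2 libraries a group, the smallest two-sided p of an exact permutation test is 0.333. Alternatives were no block, pseudocounts of 0.1 and 10, no filter and a mean of at least 50, quantile normalization, edgeR 4.0.16 and DESeq2 1.42.0 on recovered reads, and single pairs. Libraries of one group differed beyond sampling noise (chi-square) in 34.3% and 35.4% of genes and were kept apart. All members are named, and of the other pathway genes those past the threshold except some that are counted but not reported here, while Xist, Kng2, Serpina1c, C1rb, C1s2, Gm20547 and other markers stand beside the results they touch. The members and lists were chosen with earlier results of these data known. Coordinates come from GENCODE vM21 (GRCm38), where 55137 of 55397 identifiers matched. The scripts were tested on simulated data. No molecular identifiers were used, so counting error does not cover amplification.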

Additional observations from a re-analysis of the deposited data

How the results depend on the processing

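The number of genes past the threshold depended on the replicate block and the test. Against 1798 genes and 17 members (all lower) in limma with the replicate block, limma without the replicate block called 0 genes and 0 members (1783 genes and 8 members at an unadjusted p under 0.05). DESeq2 with the block called 471 genes and 8 members, and DESeq2 with no replicate block called 159 genes and 1 member, Fgb. Both DESeq2 fits took 28108 genes, where limma and edgeR took 15809, so gene set and test changed together. edgeR, both pseudocounts, both filters and quantile normalization left the 17 members at 17. Leaving out one replicate, which leaves a single pair and no test, gave a median log2 fold change of the members between -0.40 and -0.25. Under quantile normalization F7 turned to 0.028 and Serpina3n to -0.020, neither past the threshold, and the cause was not tested. Depth limits the 22 members under 10, where a few reads decide each value, and 2 libraries a group limit every p-value. Shared sequence touches Cfb, C2, C1ra, C1s1, C4b, Serpina1a, Serpina1b and, in few windows, Kng1 and Cd55, and among members under 10 Serpinc1, Plg and Saa1. Antisense genes overlap C1s1, Serpinc1, Plg, Fgg and, over few exon bases, C2, C1qtnf6, F5 and Cd55, and their reads cannot be told apart here, since the strand setting of the counting is not known.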
